A study of Homo sapiens with 18 samples.

Results

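The MYC, MAX, MXD and MLX network is a family of transcription factors that share a basic helix-loop-helix leucine zipper and bind DNA as pairs. It was followed here through 10 genes chosen by symbol, MYC, MAX, MXD1, MXI1, MXD3, MXD4, MNT, MGA, MLX and MLXIP, out of 18670 genes in the deposited count table. All 10 had a row in the table, and all 10 passed the filter on low counts in every comparison. RNA-seq was done in 18 libraries from 2 established human cell lines of monocytic character, U937 and THP-1, both labelled as acute myeloid leukaemia and grown in RPMI medium with serum, in 6 groups of 3. U937 cells carried either an empty lentiviral vector or a short hairpin against S100A9 (shS100A9). S100A9 encodes a calcium-binding protein abundant in myeloid cells. THP-1 cells carried either an empty lentiviral vector or S100A9 overexpression, and both kinds were also measured after Adavivint at 1 µM for 36 hours. All cells of all groups were selected with puromycin at 2 µg/mL, starting 48 hours after transfer and lasting at least 24 hours. Adavivint is a small molecule described as a Wnt pathway inhibitor that acts on kinases of the CLK and DYRK families. The labels do not say whether untreated THP-1 cells received solvent, which hairpin sequence was used, or whether the 3 libraries of a group came from separate cultures, so the p-values measure only the spread between these libraries, which may be technical.

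MAX is the shared partner of one arm of the network. A MYC and MAX pair recruits coactivators to a short DNA element, the E-box CACGTG, and raises transcription of genes for ribosome production, nucleotide and polyamine synthesis and cell growth. The MXD proteins (MXD1, MXI1, MXD3, MXD4) and MNT pair with MAX at the same element and recruit the SIN3-HDAC corepressor, and MGA brings MAX into a Polycomb repressor complex. In the parallel arm, MLX pairs with MLXIP, also called MondoA, which responds to glucose-derived metabolites and drives TXNIP and ARRDC4. In myeloid cells, MYC is typical of dividing precursors, and MXD1 is known for rising as such cells mature.

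The E-box is printed here because it is the element for which the members compete, and because some members of the network carry it near their own starts. In RefSeq promoter windows of GRCh38.p14, from 250 bases before to 50 bases after each annotated start, CACGTG was found in 7.26% of 35116 windows and in at least 1 window of 8.77% of 27305 genes. The motif reads the same on both strands, and no other motif was searched. Of the 10 members, 9 had a window, and 3 of those 9 held the motif, namely MXD4, MNT and MLX. Of the 41 listed genes that MYC is known to activate, 33 had a window and 19 of the 33 (57.6%) held the motif. Of 5 matched MondoA-MLX target genes, 3 held it. The letters below show the stretch around the motif that lies before the RefSeq start and outside annotated exons. They run 5′ to 3′ on the gene's strand, with the motif in capitals. For ODC1 the stretch follows an annotated exon further upstream, so it does not begin at the edge of the window. ODC1, a polyamine synthesis enzyme that is a classical MYC target, and ARRDC4, a MondoA-MLX target, are set beside the 3 members because their counts are described further on. A match is a description of letters, not of binding.

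MXD4, chr4:2262295-2262359, minus strand: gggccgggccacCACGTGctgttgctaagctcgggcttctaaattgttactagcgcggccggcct
MNT, chr17:2401119-2401310, minus strand: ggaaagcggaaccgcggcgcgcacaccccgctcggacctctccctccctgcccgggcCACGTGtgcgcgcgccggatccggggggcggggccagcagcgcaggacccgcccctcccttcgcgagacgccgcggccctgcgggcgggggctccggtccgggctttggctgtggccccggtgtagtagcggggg
MLX, chr17:42566850-42567067, plus strand: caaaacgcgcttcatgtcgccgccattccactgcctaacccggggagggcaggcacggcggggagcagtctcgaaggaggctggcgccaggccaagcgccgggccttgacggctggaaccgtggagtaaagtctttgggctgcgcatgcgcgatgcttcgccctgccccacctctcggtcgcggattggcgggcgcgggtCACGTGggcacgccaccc
ODC1, chr2:10448013-10448120, minus strand: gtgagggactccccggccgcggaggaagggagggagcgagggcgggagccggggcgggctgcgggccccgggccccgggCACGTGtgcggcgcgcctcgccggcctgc
ARRDC4, chr15:97960453-97960697, plus strand: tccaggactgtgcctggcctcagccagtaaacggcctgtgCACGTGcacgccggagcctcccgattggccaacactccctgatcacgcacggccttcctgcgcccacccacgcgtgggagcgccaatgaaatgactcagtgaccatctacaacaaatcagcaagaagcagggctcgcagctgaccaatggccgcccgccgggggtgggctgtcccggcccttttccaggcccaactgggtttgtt

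In these windows the motif began 238 bases before the RefSeq start of MXD4, 193 bases before that of MNT, 50 bases before that of MLX, 29 bases before that of ODC1 and 210 bases before that of ARRDC4. ODC1 held a further match after its start, which is not printed. The 3 members with the motif did not move in one direction with Adavivint, as MXD4 rose and MNT and MLX fell, with values given below.

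Library totals lay between 38.4 M and 84.4 M counts, and the members drew from 479 counts (MGA) to 31785 counts (MYC) in a single library. S100A9 followed the labels. It stood at 6.14 ± 1.44 CPM (counts scaled to an equal library total by TMM factors, within each line; SD, n = 3) in U937 empty vector cells and 0.225 ± 0.170 in shS100A9 cells, and at 6.38 ± 2.79, 28.1 ± 1.57, 13.9 ± 1.13 and 106.8 ± 5.15 in THP-1 empty vector, overexpressing, drug-treated empty vector and drug-treated overexpressing cells. Of 12 monocytic markers, 10 to 12 reached 1 CPM in every group, with MPO under 1 CPM in both U937 groups and CD14 at 1 CPM or more only in the 2 drug-treated groups. Erythroid markers summed to at most 2.52 CPM and epithelial markers to at most 1.63 CPM. Among stromal and endothelial markers only PECAM1 reached 1 CPM. Their part in the results was not tested. In U937, 2 libraries stood apart from their groups. In a chi-square comparison of counts over genes, the pair of empty vector replicates 1 and 3 differed by 8.05 per degree of freedom and each of them from replicate 2 by 135 and 142. Replicates 1 and 2 of shS100A9 differed by 13.1, and they differed from replicate 3 by 167 and 225. In the THP-1 groups the same measure ran from 7.18 to 37.2, the highest between empty vector replicates 1 and 3. Results in U937 are therefore given with and without empty vector replicate 2 and shS100A9 replicate 3.

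MYC is the activating partner of MAX among the members. It lies at chr8:127735434-127741434 on the plus strand (GRCh38, GENCODE 29), with 3 merged exons. In THP-1 empty vector cells MYC was at 369, 347 and 327 CPM, and in overexpressing cells at 329, 317 and 316 CPM. With Adavivint it was at 17.2, 18.3 and 14.9 CPM in empty vector cells and at 17.9, 21.5 and 25.1 CPM in overexpressing cells. The 6 drug-treated libraries lay far below the 6 untreated ones, with no overlap. In empty vector cells MYC fell 20.7-fold (log2 fold change -4.37, SE 0.11, adjusted p = 2.19e-13 by edgeR's quasi-likelihood test with Benjamini-Hochberg adjustment over 15403 genes). Its log2 fold change ranked 91 from the lowest of the 15403. In overexpressing cells MYC fell 14.9-fold (log2 fold change -3.90, SE 0.11, adjusted p = 4.33e-13, the same test). These are bulk libraries, in which fewer cells of a kind and less RNA per cell cannot be told apart.

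In U937, MYC was at 412, 187 and 395 CPM in empty vector cells and at 385, 393 and 378 CPM in shS100A9 cells. The low value came from empty vector replicate 2, and the other 5 libraries lay between 378 and 412 CPM. The knockdown difference was not called (log2 fold change 0.22, SE 0.28, adjusted p = 0.793), and without both libraries that stood apart it was -0.05 (adjusted p = 0.406). S100A9 overexpression in untreated THP-1 cells gave a log2 fold change of -0.12 (SE 0.09, adjusted p = 0.371). The interval of 2 standard errors around that difference ran from -0.30 to 0.07.

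**Figure D1:**
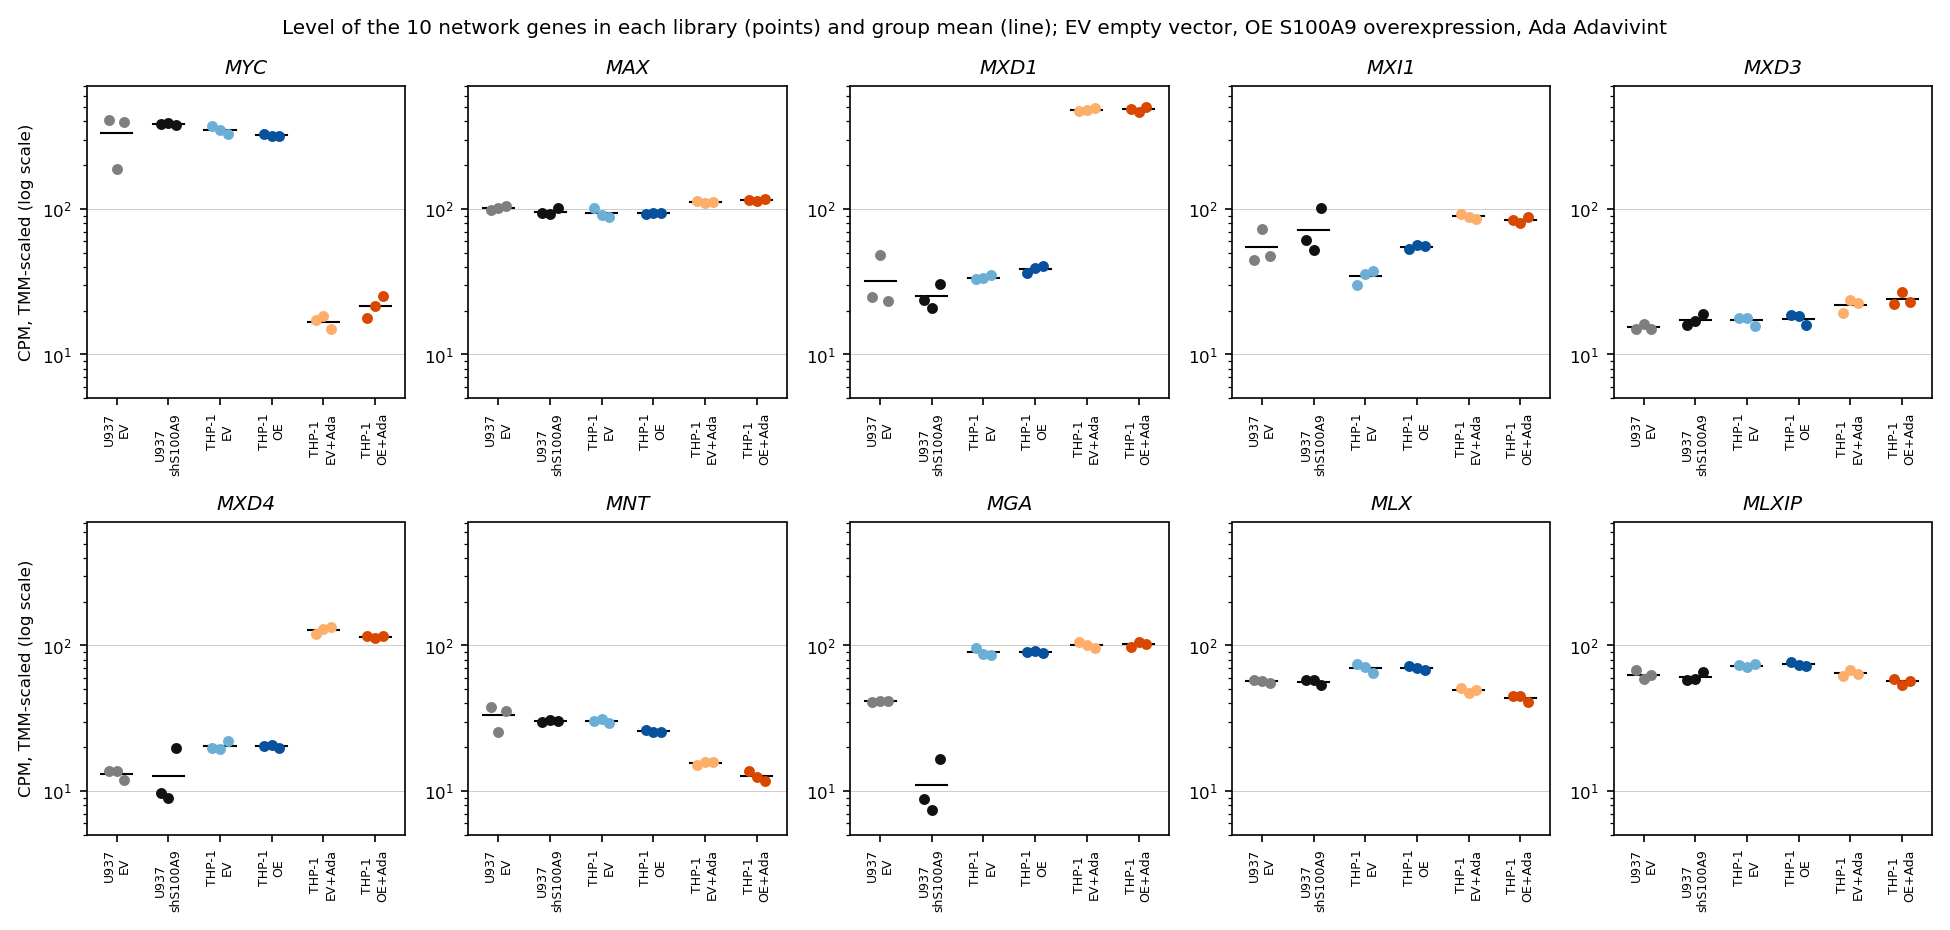
Each panel plots 1 network gene, with the 6 groups on the horizontal axis and TMM-scaled CPM on a logarithmic vertical axis; points are libraries and lines are group means, and U937 and THP-1 were scaled separately. MYC lies between 187 and 412 CPM in the 12 untreated libraries and between 14.9 and 25.1 CPM in the 6 with Adavivint, while MXD1 and MXD4 are highest in those 6.

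The MXD repressors rose with Adavivint. By log2 fold change in empty vector cells, MXD1 ranked 1215, MXD4 1819, MXI1 3170 and MXD3 6394 from the highest of the 15403 genes. MXD1 (chr2:69897688-69942945, plus strand) was at 32.9, 33.4 and 35.2 CPM in THP-1 empty vector cells and at 475, 476 and 495 CPM with the drug, a 14.3-fold rise (log2 fold change 3.83, SE 0.06, adjusted p = 6.8e-15). In overexpressing cells it went from 36.0, 39.3 and 40.7 CPM to 487, 464 and 502 CPM, a 12.5-fold rise (log2 fold change 3.65, SE 0.06, adjusted p = 8.84e-15). The treated and untreated libraries did not overlap. MXD4 (chr4:2247432-2262294, minus strand) was at 19.6, 19.5 and 22.1 CPM in empty vector cells and at 120, 130 and 134 CPM with the drug, a 6.26-fold rise. In overexpressing cells it rose 5.67-fold, from between 19.7 and 20.7 CPM to between 112 and 117 CPM. MXI1, also known as MXD2 (chr10:110207605-110287365, plus strand), rose less. It was at 30.1, 35.7 and 37.2 CPM in empty vector cells and at 92.2, 88.7 and 85.7 CPM with the drug, a 2.59-fold rise, and it rose 1.53-fold in overexpressing cells. MXD3 (chr5:177301461-177312757, minus strand) rose 1.27-fold in empty vector cells and 1.36-fold in overexpressing cells, within a range of 15.7 to 26.8 CPM over the 12 THP-1 libraries. MXD3 is uncertain, since 22.2% of its exon bases overlap PRELID1 on the opposite strand and it was not stated whether the counting used strand.

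MNT fell with the drug, and MAX and MGA rose. Over all genes tested, the median size of change was 1.94-fold in empty vector cells and 1.97-fold in overexpressing cells. The changes of MAX and MGA were smaller than that. MNT, the broadly expressed MAX-binding repressor (chr17:2384060-2401118, minus strand), was at 30.1, 31.4 and 29.5 CPM in THP-1 empty vector cells and at 15.2, 15.9 and 15.7 CPM with the drug. It fell 1.94-fold there (log2 fold change -0.96, SE 0.07, adjusted p = 6.01e-09) and 2.04-fold in overexpressing cells, so among the repressors MNT moved opposite to the 4 MXD genes. MNT shares 21.3% of its exon bases with an annotated antisense transcript that has no row in the table, and is uncertain for the same reason as MXD3. MAX (chr14:65006174-65102695, minus strand), the common partner, rose 1.20-fold in empty vector cells and 1.23-fold in overexpressing cells, from between 88.3 and 101 CPM in the 6 untreated THP-1 libraries to between 109 and 117 CPM in the 6 treated ones. MGA (chr15:41621224-41773081, plus strand) rose 1.13-fold in both backgrounds. Over the alternative fits in empty vector cells, the log2 fold change of MAX ran from 0.21 to 0.35 and that of MGA from 0.12 to 0.26.

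The MLX arm was lower with the drug. MLX (chr17:42567068-42573239, plus strand), the MAX-like partner protein, was at 74.5, 71.3 and 64.9 CPM in THP-1 empty vector cells and at 51.1, 47.3 and 49.2 CPM with Adavivint, 1.43-fold lower. In overexpressing cells its log2 fold change was -0.68 (SE 0.06), from between 67.5 and 71.9 CPM to between 40.9 and 45.0 CPM. The difference between these 2 drug effects was not called (log2 difference -0.17, adjusted p = 0.197), except with library totals (-0.23, adjusted p = 0.0479). MLX shares 29.7% of its exon bases with PSMC3IP on the opposite strand and is uncertain for the same reason as MXD3. MLXIP (chr12:122078722-122147347, plus strand), the glucose-sensing partner of MLX, was 1.13-fold lower in empty vector cells and 1.31-fold lower in overexpressing cells. The smaller fall, in empty vector cells, was not called with upper quartile scaling (adjusted p = 0.125).

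All 10 members were called in both drug comparisons, 6 higher and 4 lower in each, where called means an adjusted p below 0.05. The background share of called genes was 85.3% of the 15403 tested in empty vector cells and 84.7% in overexpressing cells, so a count of 10 called is near what the whole table showed. With a change of at least 2-fold also required, 4 of 10 members were called in empty vector cells (MYC lower, and MXD1, MXD4 and MXI1 higher) against 47.5% of all genes, and 4 of 10 in overexpressing cells (MYC and MNT lower, and MXD1 and MXD4 higher) against 48.2%. The members' median log2 fold change was 0.22 and 0.24 in the 2 comparisons, beside 0.06 and 0.04 for all genes tested.

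**Figure D2:**
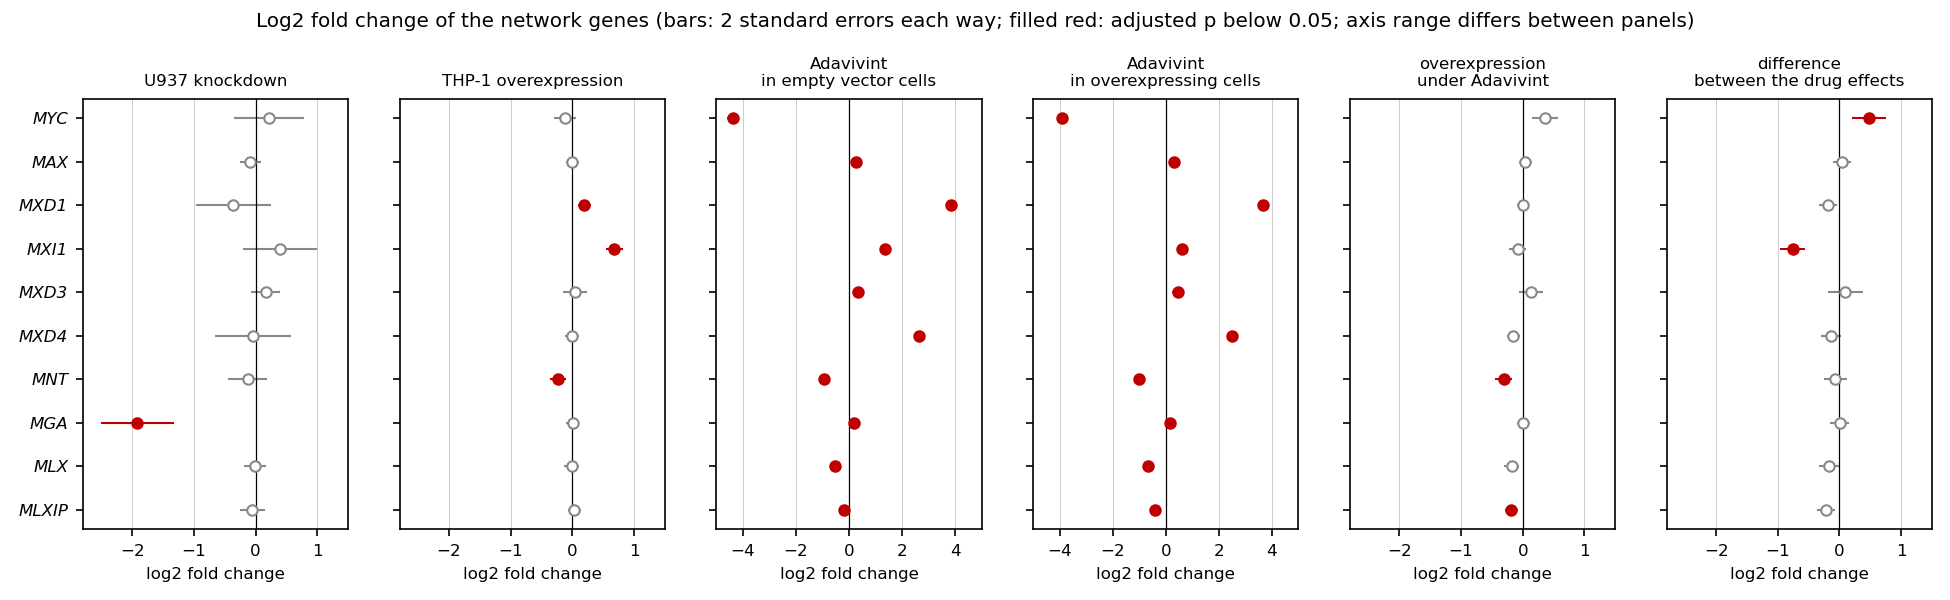
The log2 fold change of each member (horizontal axis, with bars of 2 standard errors each way, which are narrower than the points in the drug panels) is shown for 6 comparisons; filled red points have an adjusted p below 0.05. MYC at -4.37 and -3.90 and MXD1 at 3.83 and 3.65 lie at the ends of the 2 drug panels, and MGA at -1.92 is the one filled point in the U937 panel.

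To compare members with each other, levels were divided by the length of each gene's merged exons, giving CPM per kb. On this scale MYC was the highest member in all 4 untreated groups, at 110 ± 41.8 (SD, n = 3) in U937 empty vector, 128 ± 2.41 in U937 shS100A9, 116 ± 7.10 in THP-1 empty vector and 107 ± 2.35 in THP-1 overexpressing cells. It made up 55.2%, 59.1%, 55.1% and 51.8% of the summed level of the 10 genes in these groups. MAX and MLX followed, at 21.8 to 27.1 CPM per kb. With Adavivint MXD1 was the highest member, at 85.8 ± 2.04 CPM per kb in empty vector cells and 86.2 ± 3.45 in overexpressing cells (40.0% and 41.1% of the sum), and MXD4 came next at 31.5 ± 1.70 and 28.4 ± 0.609. MYC stood ninth of 10 in treated empty vector cells, at 5.61 ± 0.575 CPM per kb. It stood seventh in treated overexpressing cells, at 7.17 ± 1.20, where its range overlapped those of the neighbouring MXD3 and MGA. MNT was the lowest member in both treated groups, at 3.12 ± 0.0779 and 2.53 ± 0.200 CPM per kb.

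The balance between MYC and the MXD genes can be put as the summed level per kb of the 4 MXD genes divided by that of MYC. MNT and MGA are not part of it. This quotient was 0.191, 0.217 and 0.236 in THP-1 empty vector libraries and 0.275, 0.299 and 0.292 in overexpressing libraries. With Adavivint it was 24.9, 23.9 and 29.9 in empty vector libraries and 24.0, 19.3 and 17.5 in overexpressing ones. The untreated groups did not overlap each other, whereas the treated groups did. From untreated empty vector to overexpressing cells, MXI1 went from 8.48 to 13.6 CPM per kb and MXD1 from 6.02 to 6.88. MXD3 went from 5.21 to 5.36 and MXD4 from 5.04 to 5.01 CPM per kb. The summed MXD level alone went from 24.7 ± 1.11 to 146 ± 3.16 CPM per kb in empty vector cells and from 30.8 ± 0.727 to 143 ± 4.31 in overexpressing cells. In U937 the quotient was 0.170, 0.559 and 0.178 with the empty vector and 0.206, 0.184 and 0.327 with shS100A9, the high values coming from the 2 libraries that stood apart. The level of MYC per level of MAX was 5.09 ± 0.110 in THP-1 empty vector cells and 0.206 ± 0.0227 after the drug. Transcript levels do not measure the proteins that form the pairs.

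**Figure D3:**
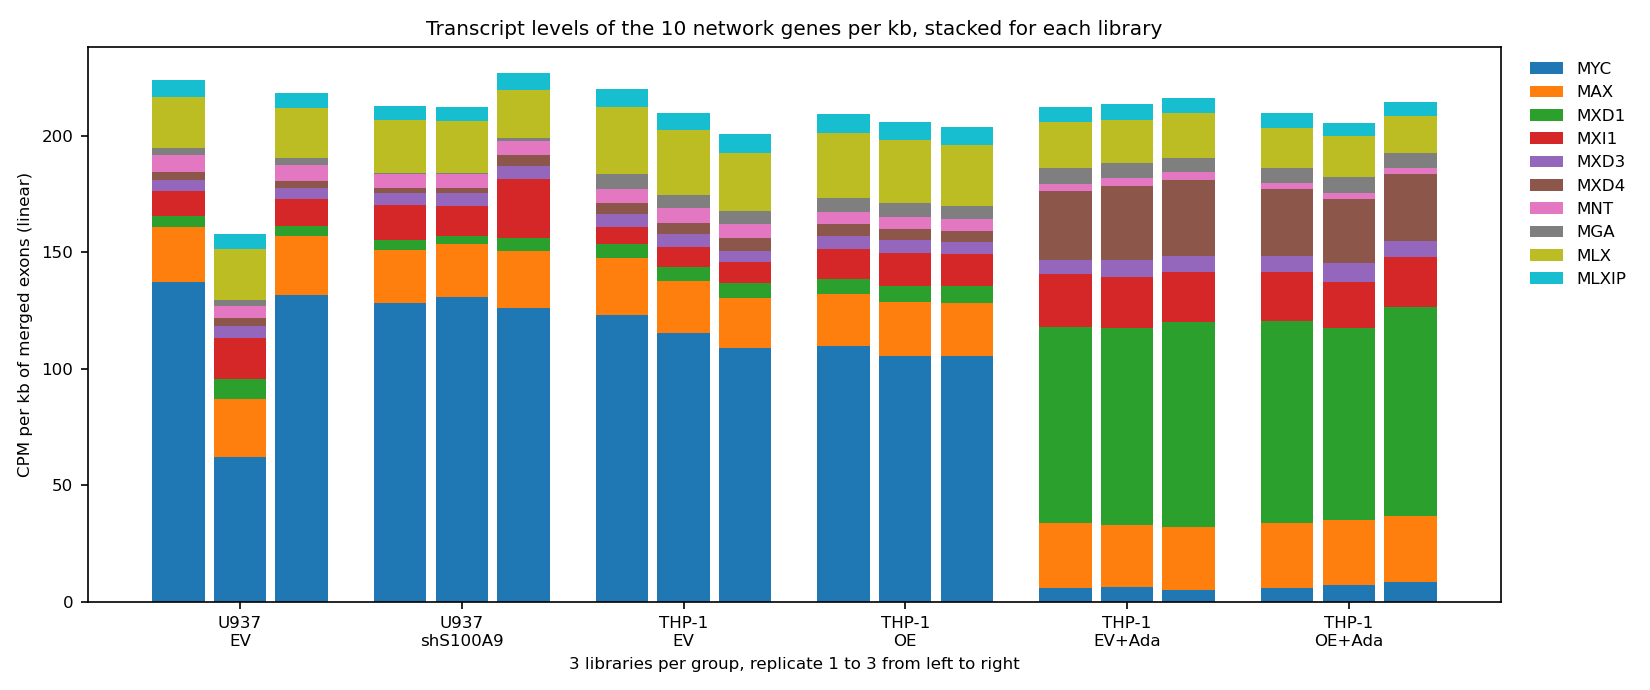
Each bar is 1 library, stacking the CPM per kb of merged exons of the 10 members on a linear axis from 0. MYC (blue) fills more than MXD1 (green) in the 12 untreated libraries, and MXD1 and MXD4 (brown) fill most of the bars of the 6 libraries with Adavivint, where MYC lies between 4.98 and 8.37 CPM per kb.

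The comparison of S100A9 overexpression with empty vector in untreated THP-1 cells asked what a gain of the gene changes. In it, 3 of 10 members were called, against 28% of all genes. The comparison shares its empty vector libraries with the drug comparison in empty vector cells. MXI1 was at 30.1, 35.7 and 37.2 CPM with the empty vector and at 52.7, 56.5 and 56.0 CPM with S100A9 overexpression. The groups did not overlap, and MXI1 rose (log2 fold change 0.68, SE 0.07, adjusted p = 5.57e-05). This call held with each of the 6 libraries left out in turn. MXD1 rose 1.14-fold (log2 fold change 0.19, SE 0.05, adjusted p = 0.0167) and MNT fell 1.18-fold (log2 fold change -0.24, SE 0.06, adjusted p = 0.0153). The MXD1 call was lost without empty vector replicate 1 or 2 or overexpression replicate 2 or 3 (adjusted p up to 0.0812) and with only the 6 libraries of the comparison fitted (0.0775), and the MNT call without empty vector replicate 2 or overexpression replicate 2 or 3 (up to 0.0628). The other 7 members had log2 fold changes between -0.12 and 0.04, none of them called.

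S100A9 overexpression was also compared with empty vector among the treated THP-1 cells. MXI1 was at 84.6, 80.0 and 87.7 CPM against 92.2, 88.7 and 85.7 CPM, a log2 fold change of -0.08 (SE 0.07, adjusted p = 0.551). Here 2 of 10 members were called, against 8.5% of all genes, MNT at a log2 fold change of -0.30 (SE 0.07, adjusted p = 0.0168) and MLXIP at -0.19 (SE 0.05, adjusted p = 0.0471). MNT was at 13.7, 12.6 and 11.7 CPM in overexpressing cells and at 15.2, 15.9 and 15.7 CPM in empty vector cells. The MNT call was lost without empty vector replicate 2 or overexpression replicate 2 or 3 of the treated groups (adjusted p up to 0.0705), and the MLXIP call was lost without any 1 of the 6 treated libraries (0.0525 to 0.213). MYC was 1.28-fold higher in overexpressing cells, with overlapping groups (log2 fold change 0.36, SE 0.10, adjusted p = 0.0509). It was called under DESeq2 size factors, upper quartile factors, DESeq2 and factors over all 18 libraries, and without treated overexpression replicate 1 (adjusted p between 0.00461 and 0.0476).

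The drug effect itself was compared between the 2 backgrounds by the interaction term of the 12-library fit, which shares libraries with the 4 comparisons above. It was called for 2 of 10 members, against 19.3% of all genes. For MXI1 the drug effect was smaller in overexpressing cells, by 0.76 on the log2 scale (log2 difference -0.76, SE 0.10, adjusted p = 0.000554), and it was called with each of the 12 libraries left out in turn. For MYC the fall was smaller in overexpressing cells (log2 difference 0.47, SE 0.14, adjusted p = 0.0304). That call was kept in 4 of 12 fits with 1 library left out, and was lost without empty vector replicate 1 or 2, overexpression replicate 2 or 3, treated empty vector replicate 1 or 3, or treated overexpression replicate 2 or 3 (adjusted p between 0.053 and 0.0772).

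The U937 comparison asked what a loss of S100A9 changes. Of the members, 1 of 10 members was called, MGA, against 1.77% of all genes in either direction and 1.54% lower. MGA, the large scaffold that carries MAX into a Polycomb complex, was at 40.9, 41.5 and 41.8 CPM in empty vector cells and at 8.88, 7.37 and 16.6 CPM in shS100A9 cells. All 3 shS100A9 libraries lay below all 3 empty vector libraries, and shS100A9 replicate 3 was the highest of its group. MGA fell 3.77-fold (log2 fold change -1.92, SE 0.30, adjusted p = 0.0355). The call was kept without shS100A9 replicate 3 (adjusted p = 0.00491), and was lost without any 1 of the other 5 libraries (between 0.0584 and 0.188), with log2 fold changes from -2.35 to -1.70 in all 6 such fits. The labels give shS100A9 for a single group and no hairpin sequence, so an effect of the hairpin and an effect of losing S100A9 cannot be told apart. In THP-1 cells, a separate comparison in another line, S100A9 overexpression gave MGA a log2 fold change of 0.01 (SE 0.05, adjusted p = 0.929). Of 13 listed genes of the MGA-containing Polycomb complex, 0 were called by edgeR in the knockdown, with 6 of the 13 log2 fold changes above 0. Without both libraries that stood apart, 3 of the 13 were called higher and 2 lower, near the 32.9% of all genes called in that fit.

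Of the remaining members, MAX, MXD3, MLX and MLXIP were close between the 2 U937 groups. MXD1, MXI1, MXD4 and MNT were also not called, with overlapping groups and wider spreads. Their log2 fold changes were -0.36 (SE 0.30), 0.39 (SE 0.30), -0.04 (SE 0.31) and -0.13 (SE 0.16). MAX lay between 92.4 and 105 CPM over the 6 libraries, MXD3 between 15.0 and 18.9, MLX between 53.9 and 58.2 and MLXIP between 58.3 and 67.8 CPM, and each of these 4 had overlapping groups and a log2 fold change between -0.08 and 0.17. Per kb of exon, MGA was the lowest member in both U937 groups, at 2.73 ± 0.0307 CPM per kb with the empty vector and 0.721 ± 0.326 with shS100A9.

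Without empty vector replicate 2 and shS100A9 replicate 3, which left 2 libraries a group and was chosen after seeing the data, 4 of 10 members were called, against 32.9% of all genes. MGA was at a log2 fold change of -2.35, MXD4 at -0.46 (adjusted p = 0.0135) and MNT at -0.28 (adjusted p = 0.0142), all lower, and MXI1 was higher at 0.31 (adjusted p = 0.0226). With all 6 libraries these last 3 genes had adjusted p-values of 0.973, 0.789 and 0.618. In the full set, empty vector replicate 2 held the lowest MYC and MNT and the highest MXD1 of the 6 libraries, at 187, 25.6 and 48.2 CPM. It also had the highest TXNIP, at 560 CPM against 86.8 and 89.5 CPM in its group. In shS100A9 replicate 3, MXI1 at 102 CPM, MXD4 at 19.6 CPM and MGA at 16.6 CPM were the highest of the group, and TXNIP was at 261 CPM against 169 and 142 CPM.

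**Figure D4:**
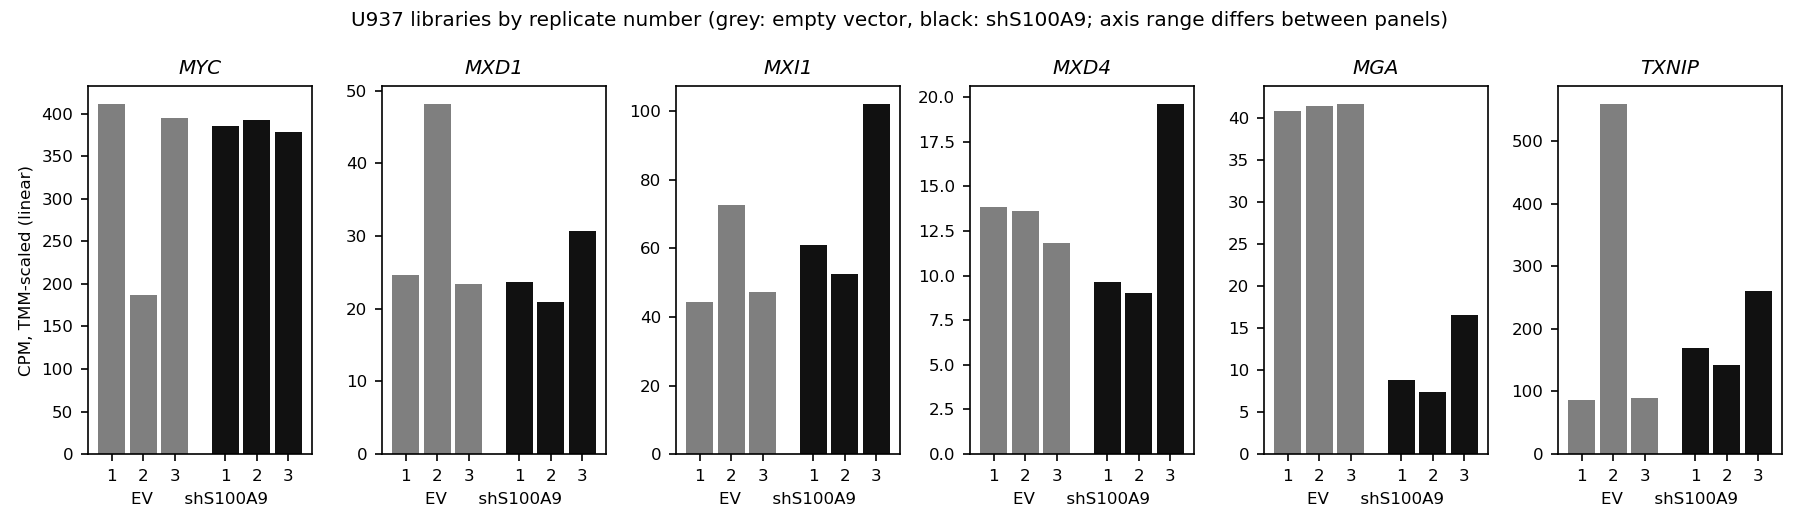
Bars give TMM-scaled CPM on linear axes from 0 for 5 members and the MondoA-MLX target TXNIP in the 6 U937 libraries, grey for empty vector and black for shS100A9, by replicate number. Empty vector replicate 2 is the low bar for MYC (187 CPM) and the high bar for MXD1 and TXNIP (48.2 and 560 CPM), and MGA is lower in all 3 shS100A9 libraries (7.37 to 16.6 CPM) than in the empty vector libraries (40.9 to 41.8 CPM).

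Between the 2 empty vector groups, the line cannot be told apart from anything else that differed between them. MGA was lower in U937 (log2 fold change -1.13, SE 0.07, adjusted p = 0.000121), as were MXD4 (-0.66, adjusted p = 0.0057) and MLX (-0.32, adjusted p = 0.0187), 3 of 10 members against 26.2% of all genes. MYC did not differ beyond the spread (-0.08, SE 0.27, adjusted p = 0.858). Without U937 empty vector replicate 2 its direction turned and it was called (0.20, adjusted p = 0.0384), and 8 of 10 members were called against 43.9% of all genes. The MLX call was lost without U937 replicate 1 or 3 or THP-1 replicate 1 or 2 (adjusted p up to 0.0975), and the calls of MGA and MXD4 held with each of the 6 libraries left out.

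The close relatives of the members were of unequal level. MYCL, a MYC paralog, was at 16.0 ± 0.773 CPM in THP-1 empty vector cells and at 3.40 ± 1.18 CPM in U937 empty vector cells. With Adavivint MYCL rose 1.18-fold in empty vector cells and 1.37-fold in overexpressing cells. MYCN, the other MYC paralog, had 2 counts in all 18 libraries together, both in 1 library. MLXIPL, the paralog of MLXIP known as ChREBP, had 25 counts over the 3 overexpression libraries and 0 to 2 counts in each other group. Neither passed the filter on low counts. With no filter MLXIPL was called lower with Adavivint in overexpressing cells (adjusted p = 0.00642), on those 25 counts.

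Genes that MYC is known to activate were lower with the drug. Of 41 such genes, 37 were called lower and 3 higher in empty vector cells, against 41.1% of all genes called lower, and 28 were at least 2-fold lower, against 21.7%. Their median log2 fold change was -1.39 beside 0.06 for all genes. ODC1 was at 319, 234 and 204 CPM in empty vector cells and at 28.9, 25.6 and 27.8 CPM with the drug, a 9.20-fold fall. DNPH1, a nucleotide hydrolase, fell 7.42-fold, TCOF1, a nucleolar factor of ribosomal RNA transcription, fell 6.59-fold, and MYBBP1A, a nucleolar MYB-binding protein, fell 6.46-fold. TFRC, the transferrin receptor and also a listed MYC target, was called higher with overlapping groups (1.35-fold, adjusted p = 0.0373). The number called higher was 0 without empty vector replicate 2 or 3 or treated replicate 2, and 1 without treated replicate 1 or 3. In overexpressing cells 34 of 41 were called lower (41.3% of all genes), 2 higher, and 25 were at least 2-fold lower (22.8% of all genes), with a median of -1.11 beside 0.04.

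With S100A9 overexpression alone, 26 of the 41 were called lower and 1 higher, against 13% of all genes called lower. The median was -0.27 beside 0.02 for all genes, and MYC itself had no called change in that comparison. HSPE1, a mitochondrial chaperonin, fell 1.70-fold, NOP16, a ribosome biogenesis factor, fell 1.62-fold and RRP9, a small nucleolar RNP protein, fell 1.46-fold. NOP16 was at 68.7, 55.8 and 47.5 CPM with the empty vector and at 35.5, 35.5 and 35.2 CPM with overexpression, so the spread lay in the empty vector group. TFRC fell 1.46-fold with overlapping groups, at 362, 216 and 175 CPM against 166, 177 and 175 CPM. The number called lower was 15 without empty vector replicate 1, the library in which NOP16, TFRC and ODC1 were highest, and 33 without empty vector replicate 3. The drug effect on this list differed between backgrounds for 12 genes. For 10 of them the log2 difference was above 0, against 8.04% of all genes, with HSPE1 at 0.83, NOP16 at 0.76 and MYBBP1A at 0.65, each of which fell less in overexpressing cells. The other 2 were lower. CCND2, a D-type cyclin, was at -0.69, called 1.16-fold higher with the drug in empty vector cells and 1.40-fold lower in overexpressing cells, and SHMT2, a mitochondrial serine enzyme, was at -0.62 and fell 4.54-fold and 6.98-fold. The count of 10 ran from 7 to 21 with 1 library left out, the highest without empty vector replicate 3. Between the 2 treated groups, 0 of the 41 were called higher with overexpression and 2 lower, against 8.5% of all genes in either direction. The median there was -0.04 beside -0.003 for all genes.

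In the U937 knockdown, DNPH1 was the 1 called gene of the 41, near the share of all genes called (1.77%, and 1.54% lower). It was at 28.3, 27.2 and 29.1 CPM in empty vector cells and at 16.8, 19.5 and 17.8 CPM in shS100A9 cells, 1.56-fold lower (adjusted p = 0.0411). No gene of the list was called lower without any 1 of empty vector replicates 1 and 3 and shS100A9 replicates 1, 2 and 3, and the count was 1 without empty vector replicate 2. Without both libraries that stood apart, 15 of the 41 were called lower, against 17.7% of all genes called lower, and 1 higher.

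Genes that MYC is known to repress did not move in one direction. Of 10 tested, 5 were called higher and 4 lower with the drug in empty vector cells, where 44.2% of all genes were called higher. The cell cycle inhibitors CDKN2B and CDKN1B rose 3.00-fold and 2.40-fold, and the ferritin heavy chain gene FTH1 rose 2.27-fold. GADD45A, a stress response gene, fell 1.55-fold. In overexpressing cells, where 43.4% of all genes were called higher, 5 rose and 4 fell, CDKN2B at 3.57-fold higher and GADD45A at 2.60-fold lower. With S100A9 overexpression alone 4 of the 10 were called higher, against 14.9% of all genes, and 0 lower (GADD45A 1.35-fold, CDKN1B 1.22-fold, NDRG1 1.19-fold and FTH1 1.13-fold). That count was 2 without empty vector replicate 2 and 2 without overexpression replicate 1. In the U937 knockdown NDRG1, a differentiation-related gene, was called higher, at 2.02-fold (adjusted p = 0.0338), where 0.23% of all genes were. The count for this list was 1 without shS100A9 replicate 3 and 0 without any 1 of the other 5 U937 libraries.

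**Figure D5:**
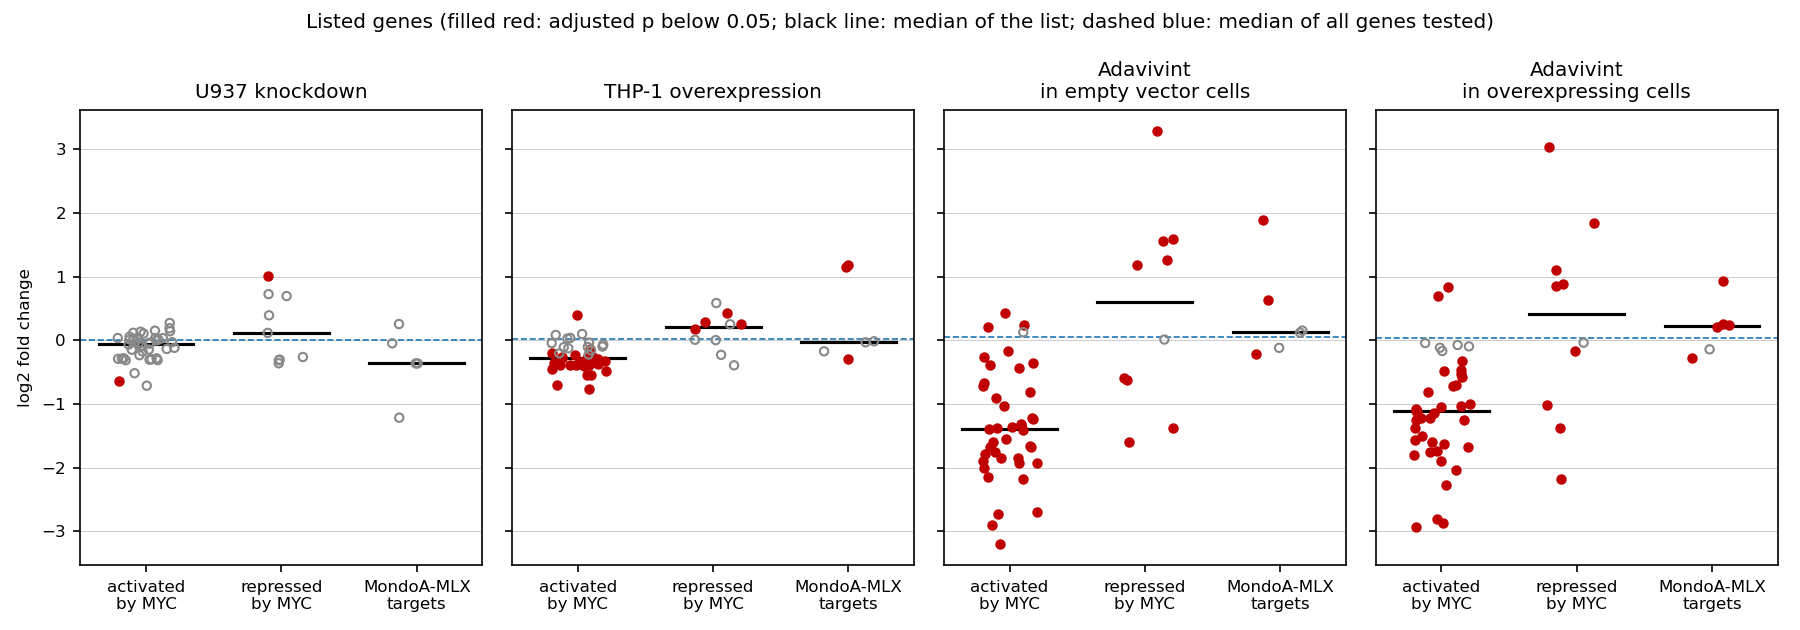
Each point is 1 listed gene, with its log2 fold change on the vertical axis, in 4 comparisons and 3 lists; filled red points have an adjusted p below 0.05, black lines are list medians and the dashed line is the median of all genes tested. The list activated by MYC has medians of -1.39 and -1.11 with Adavivint and -0.27 with S100A9 overexpression, while the list repressed by MYC is spread on both sides of 0 with the drug.

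Targets of the MondoA-MLX arm were not uniform. TXNIP, which restrains glucose uptake and binds thioredoxin, was at 119, 107 and 117 CPM in THP-1 empty vector cells and at 246, 259 and 257 CPM with S100A9 overexpression, a 2.23-fold rise (log2 fold change 1.15, SE 0.05, adjusted p = 3.63e-08). With Adavivint it was at 419, 413 and 434 CPM in empty vector cells and at 468, 495 and 483 CPM in overexpressing cells, rises of 3.70-fold and 1.90-fold. The drug effect on TXNIP was smaller in overexpressing cells (log2 difference -0.96, SE 0.07, adjusted p = 9.28e-06). ARRDC4, its relative among the arrestin-domain proteins, rose 2.26-fold with overexpression, from 4.55, 3.26 and 4.09 CPM to 8.45, 8.78 and 9.68 CPM. With the drug it rose 1.54-fold in empty vector cells and was 1.22-fold lower in overexpressing cells (log2 difference -0.91, adjusted p = 0.00492). The other 4 listed targets, ARRDC3, KLF10, HK2 and PFKFB3, had log2 fold changes between -0.29 and 0.25 in these 3 comparisons. Of these, PFKFB3, which sets the rate of glycolysis, was called lower with overexpression (-0.29, adjusted p = 0.00853) and with the drug in empty vector cells (-0.21) and higher with the drug in overexpressing cells (0.21), and KLF10 and HK2 were called higher only in the latter. Of the 6 listed targets, 2 were called higher and 1 lower with the drug in empty vector cells, and 4 higher and 1 lower in overexpressing cells. Of all genes, 44.2% and 43.4% were called higher in these comparisons and 41.1% and 41.3% lower. Over the alternative fits, the number of listed targets called higher ran from 2 to 4 in each drug comparison. The number called lower ran from 0 to 1 in each. Levels of MLXIP and MLX had no called change with overexpression alone (log2 fold changes 0.03 and -0.01).

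The partner complexes changed in both directions with the drug. Of 18 coactivators and chromatin partners of MYC, 8 were called higher and 9 lower in empty vector cells, near the 85.3% of all genes called there. RUVBL2, an ATPase of MYC-associated chromatin complexes, was at 198, 177 and 177 CPM in empty vector cells and at 14.2, 14.6 and 12.8 CPM with the drug, a 13.3-fold fall. The histone acetyltransferase KAT2A fell 4.90-fold, RUVBL1, the partner of RUVBL2, fell 4.65-fold and WDR5, a MYC-binding chromatin adaptor, fell 3.40-fold. In overexpressing cells the split was again 8 higher and 9 lower, with CCNT1, the cyclin of the elongation factor P-TEFb, 3.35-fold higher. Of 16 SIN3-HDAC corepressor genes, through which MXD proteins and MNT act, 7 were called higher and 6 lower in empty vector cells, also near that share. SAP30 and RBBP7 fell 3.69-fold and 2.54-fold, and SAP18 and ARID4B rose 2.34-fold and 2.31-fold. In overexpressing cells 7 rose and 7 fell, where 84.7% of all genes were called. The median log2 fold change of the corepressor list was 0.07 and that of the coactivator list -0.05 in empty vector cells, beside 0.06 for all genes.

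Of 20 genes of MYC protein turnover, 6 were called higher and 10 lower with the drug in empty vector cells, near the 85.3% of all genes called. FBXW7, the ubiquitin ligase subunit that recognises phosphorylated MYC, rose 3.20-fold, from 26.6, 27.7 and 27.3 CPM to 88.9, 85.4 and 86.6 CPM. FBXO32, another F-box subunit, rose 16.6-fold and GSK3B, a kinase that phosphorylates MYC, rose 2.50-fold. SKP2, an F-box subunit that also binds MYC, fell 3.49-fold. In overexpressing cells FBXO32 rose 9.03-fold, FBXW7 3.06-fold, and SKP2 fell 3.40-fold. With S100A9 overexpression alone FBXO32 rose 1.71-fold (adjusted p = 0.000784). Of the 13 Polycomb complex genes, 5 were called higher and 6 lower in empty vector cells, near the same share. WDR5 was 3.40-fold and RNF2, a ubiquitin ligase subunit, 1.84-fold lower, and YAF2 was 2.63-fold and RING1 1.87-fold higher. In overexpressing cells 4 were called higher and 6 lower, where 84.7% of all genes were called in either direction.

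Genes whose level ran most like that of a member over the 18 libraries are given as a description, since Adavivint split the libraries into 2 sets and any gene that changed strongly with it scores high. Pearson correlations of log2(CPM + 1) were computed over 10596 genes with a mean of at least 5 CPM. The genes most like MYC were TMEM163 (r = 0.997), GATD1, TLR4, KARS1 and KAT2A (r = 0.995). For the other members given here, the single most alike gene was RC3H2 for MXD1 (r = 0.997), SYNRG for MXD4 (r = 0.994), EEIG1 for MNT (r = 0.985), CDC42SE2 for MGA (r = 0.984), MRPL33 for MLX (r = 0.961), KPNA4 for MAX (r = 0.956), ZNF414 for MXD3 (r = 0.930) and EPHB6 for MLXIP (r = 0.920). Libraries of the 2 lines in this measure were scaled separately.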

How the data were processed

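RNA was isolated as total RNA with TRIzol, per the labels' protocols, and reads were aligned with HISAT2 2.0.4, per the submitters' processing notes. The counter, build, annotation and strand were not given in the sources used here. One file that the authors deposited holds raw counts by Ensembl gene identifier for all 18 libraries (18670 genes, of which 18642 matched a symbol). Counts per gene do not separate isoforms.

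Genes were filtered with filterByExpr, scaled by TMM and tested with edgeR 4.0.16 in R 4.3.3 (quasi-likelihood F test, Benjamini-Hochberg over all genes tested). U937 knockdown (13016 genes, 4 residual degrees of freedom) and the line comparison (13695 genes) were fitted on 6 libraries each, and 5 THP-1 contrasts on 1 fit of 12 libraries (15403 genes, 8 residual degrees of freedom). CPM values were scaled within each line, so levels set across the lines were scaled separately. Standard errors were computed from the F statistic as the size of the log2 fold change over its square root. Comparisons share control libraries, so they are not independent of each other. The scripts were tested on simulated data. Groups were taken from the sample titles, and coordinates and exon lengths come from GENCODE 29 on GRCh38, promoter letters from RefSeq on GRCh38.p14. No 2 replicates agreed within sampling noise (chi-square per degree of freedom at least 7.18 over 18 pairs).

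The members and the gene lists were chosen with earlier results of these data known. All 10 members were named, and from each longer list up to 4 called genes per comparison with the largest absolute log2 fold change and a mean of at least 5 CPM in 1 group, with every gene of lists of 6 or fewer. TFRC, ODC1, FBXO32, FBXW7, SKP2, RUVBL2, SHMT2 and MYBBP1A are in places also given outside that rule, chosen after their values were seen. The lymphoid marker list and the gene most like MXI1 are not reported here. Alternatives were DESeq2 1.42.0, its size factors, library totals, upper quartile factors, no filter, a replicate block, fits on 6 libraries only and each library left out, with 2 added after seeing the data (both U937 libraries that stood apart left out, and TMM over all 18 libraries).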

Additional observations from a re-analysis of the deposited data

Results flagged for a closer look

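The drug effect on 2 members differed between THP-1 empty vector and S100A9-overexpressing cells by the interaction term of the edgeR fit. For MYC the log2 difference was 0.47 (SE 0.14, adjusted p = 0.0304, n = 3 libraries in each of 4 groups), from a fall of 4.37 on the log2 scale in empty vector cells to a fall of 3.90 in overexpressing cells. For MXI1 it was -0.76 (SE 0.10, adjusted p = 0.000554), from a log2 fold change of 1.37 to 0.61. The untreated MXI1 level was 34.4 ± 3.73 CPM (SD, n = 3) with the empty vector and 55.1 ± 2.07 with overexpression, and the treated levels were 88.8 ± 3.23 and 84.1 ± 3.89 CPM.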

How the results depend on the processing

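Over the 7 comparisons, 896 of 1020 member log2 fold changes under an alternative kept direction and side of the threshold, 43 lost the call, 21 gained it and 60 changed sign, 59 of these with no call in either fit. In the drug comparisons the 10 member calls in each held under every alternative run except MLXIP with upper quartile factors.

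The count of genes called in the U937 knockdown (231) was 797 with DESeq2, 3 with the replicate block, 18 to 362 with 1 library left out and 4296 without both libraries that stood apart. Its count of members (1) was 0 with the block, 0 to 1 with 1 left out and 4 without both. The share of calls that were higher was 13.0%, 29.5% with DESeq2 and 46.3% without both. Overexpression gave 4307 genes (2735 to 4983 with 1 left out) and 3 members (1 to 3). Overexpression under Adavivint gave 1309 genes (1998 with DESeq2, 502 to 1174 with 1 left out) and 2 members (4 with library totals, 1 with no filter, 1 with the block, 1 on only the 6 libraries, 0 to 2 with 1 left out). The interaction gave 2968 genes (1885 to 3724) and 2 members (5 with library totals, 1 with the block, 1 to 3 with 1 left out). U937 against THP-1 gave 3583 genes (2122 to 6111) and 3 members (2 to 8). The share higher fell from 43.5% to 20.2% with library totals, and was 53.9% with upper quartile factors, for overexpression under Adavivint, and fell from 41.7% to 28.8% with library totals for the interaction. The cause was not tested.

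Changes of sign were as follows, with ranges over the fits that leave 1 library out. In the knockdown MXD4 was 0.0046 with upper quartile factors (-0.49 to 0.16 with 1 left out), MLX 0.032 with upper quartile factors, 0.0034 with no filter, 0.0034 with factors over 18 libraries and 0.035 without both (-0.024 to 0.030), MYC -0.050 without both (-0.065 to 0.41), MLXIP -0.11 to 0.0060 and MXD1 -0.54 to 0.061. With overexpression MAX was -0.010 with DESeq2 size factors, -0.0095 with DESeq2, -0.0024 with factors over 18 libraries and -0.017 on 6 libraries (-0.037 to 0.062), MGA -0.0030, -0.0019 and -0.0097 with size factors, DESeq2 and 6 libraries (-0.017 to 0.056), MXD4 0.00074 and MLX 0.00023 with library totals (-0.037 to 0.055 and -0.063 to 0.035), and MXD3 -0.018 to 0.11. Under Adavivint, library totals gave MAX -0.011, MXD1 -0.049 (-0.020 to 0.038) and MGA -0.047 (-0.024 to 0.046). For the interaction MAX was -0.022 (-0.017 to 0.082) and MGA -0.065 with library totals and -0.0068 with no filter (-0.047 to 0.037). Between lines MNT ran from -0.0014 to 0.26, MXD1 from -0.51 to 0.098 and MYC from -0.27 to 0.20.

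Labels give every group replicates 1 to 3, but the numbers did not pair the samples: correlations of deviations between same-numbered libraries were 0.36, -0.61 and -0.55 in U937, -0.13 to 0.12 in THP-1 and 0.41, 0.14 and -0.34 between lines. With the replicate block the calls of MGA in the knockdown (adjusted p = 0.163), MLXIP under Adavivint (0.0803), MYC in the interaction (0.0523) and MLX between lines (0.0586) were lost and MXI1 between lines was gained (0.0364); the block gave 3864, 12999, 12957, 982, 2477 and 2880 genes in the other 6 comparisons.

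Members had at least 479 counts in every library, and all were tested in every comparison. Among the listed genes, low counts kept MYCN, MLXIPL and DKK1 from testing in every comparison, and NDRG2 and ARRDC4 in the knockdown.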
